A study of Mus musculus with 14 samples.

Results

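Kept strong hotspots were the autosomal *Hells* CTRL peaks of DMC1 enrichment with a strength above 338 for which a *Hells* cKO peak was centered less than 400 bp away. There were 613 of them among the 934 autosomal *Hells* CTRL peaks of that strength, that is 65.6% of these peaks, against 2.8% of the 9463 weaker autosomal peaks and 8.44% of all 10397. They made up 613 of the 11133 peaks of the *Hells* CTRL list, and their partners were 613 of the 17117 peaks of the *Hells* cKO list. The other 321 strong peaks, with no *Hells* cKO center within that distance, are called missing strong hotspots. The members were chosen by their *Hells* CTRL strengths and by the presence of a *Hells* cKO center, so both are given below as descriptions only.

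DMC1 ChIP-SSDS was performed on whole testes of adult mice, with a goat polyclonal antibody against DMC1. *Hells* CTRL mice were *Hells* fl/Δ, carrying a floxed and a deleted allele, and were 5 weeks old with 2 testes per replicate. *Hells* cKO mice were *Hells* fl/Δ;*Stra8*-iCre, in which Cre is expressed in the male germ line from the *Stra8* promoter, and were 9 weeks old with 3 testes per replicate. Both carried the deleted allele and expressed the PRDM9 Dom2 variant. According to the study, HELLS remained weakly detectable in part of the *Hells* cKO nuclei, which limits the mutant as a model of full loss. There were 2 replicates per genotype, 1 of each genotype on each of 2 lanes, and the authors merged them into 1 final list per genotype. Age and genotype cannot be told apart, and no spread between replicates can be given. The strength is the authors' score, a whole number for the fragments at a re-centered peak over the local background, and the reads behind it are unknown. The authors did not normalize the genotypes to each other, so ratios of strengths between the lists depend on their scale.

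In meiosis, PRDM9 binds its DNA motif through a zinc finger array and trimethylates histone H3 on neighbouring nucleosomes, and SPO11 then makes double-strand breaks (DSBs) close to the motif. The ends are resected to single-strand DNA, on which DMC1 assembles to search for the homologous chromosome, so that DMC1-bound single-strand DNA marks where DSBs were made. HELLS is a chromatin remodeler of the SNF2-like family. It binds PRDM9, and the study proposes that it opens chromatin at the sites that PRDM9 selects. When PRDM9 does not direct DSBs, they form at default sites, many of them at promoters. Members are therefore described by the features that separate both kinds of site: the motif, CpG dinucleotides and distance to a transcription start site.

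A motif matrix of 27 positions was learned on weaker *Hells* CTRL peaks with no *Hells* cKO partner, so no member entered it. Positions where a single base made up at least 0.6 of the matrix read GNNGNTNCTNCCNNNNNNNNNNNT, and both strands were searched. The 6 strongest members with a match outside tandem repeats are shown over 60 bases, 5′ to 3′ on the strand of the match, with the 27 matched bases in capitals. They were chosen for having a match, so they show only how matched sequences may depart from the consensus.
Ankfn1: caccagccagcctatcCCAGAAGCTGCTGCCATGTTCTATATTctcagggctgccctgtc
Erbb4: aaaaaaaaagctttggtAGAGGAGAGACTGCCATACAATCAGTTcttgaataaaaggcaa
Dennd1a: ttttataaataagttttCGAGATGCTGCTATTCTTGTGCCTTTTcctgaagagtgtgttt
Hdac9: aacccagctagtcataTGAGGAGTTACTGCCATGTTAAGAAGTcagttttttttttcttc
Intergenic, chromosome 2: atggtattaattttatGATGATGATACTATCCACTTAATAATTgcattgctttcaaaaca
Braf: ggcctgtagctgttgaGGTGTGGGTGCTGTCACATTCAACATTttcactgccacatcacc

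On GRCm38.p6, these sequences lie at chr11:89611852-89611911 (+ strand) in an intron of *Ankfn1*, chr1:68488971-68489030 (- strand) in an intron of *Erbb4*, chr2:38137666-38137725 (- strand) in an intron of *Dennd1a*, chr12:34595239-34595298 (+ strand) in an intron of *Hdac9*, chr2:98108374-98108433 (+ strand) between genes and chr6:39640477-39640536 (+ strand) in a noncoding exon of *Braf*. *Erbb4* encodes a receptor tyrosine kinase for neuregulins, *Dennd1a* an exchange factor for a Rab GTPase, *Hdac9* a histone deacetylase and *Braf* a kinase of the MAPK pathway. The middle of the match lay between 81 bp on the side of lower coordinates (*Erbb4*) and 72 bp on the other (*Ankfn1*) from the *Hells* CTRL center, and 2 bp from it in *Dennd1a*. The log-odds score, in bits over the base composition of flanking windows, ranged from 11.2 (*Braf*) to 24.3 (*Ankfn1*), while strengths in *Hells* CTRL of these 6 ranged from 1973 to 2360.

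The partners of the members had low scores on the *Hells* cKO list. The median strength in *Hells* CTRL was 574, with a maximum of 5547, and the partners had a median of 17 (quartiles 13 and 24), from 6 up to 3299. The median strength ratio of *Hells* CTRL over *Hells* cKO was 33.4, or 5.06 on the log2 scale (95% interval of the median 5.03 to 5.10, n = 613), and the quartiles of the ratio were 28 and 39.3. Whether the deposited score includes the scaling to library size that the methods describe is not known. With each strength taken relative to its list's sum or median, the median log2 ratio was 4.23 or 4.04. On the deposited scale all members were stronger in *Hells* CTRL, and relative to the sums or medians 6 or 8 of the 613 were stronger in *Hells* cKO. In whole testes, fewer cells with breaks, fewer breaks per cell and altered DMC1 dynamics cannot be told apart. Of the 613, 605 were at least 2-fold stronger there and 602 at least 4-fold, while 86.7% and 84.7% of all autosomal *Hells* CTRL peaks with a partner reached these limits. Because the choice of members required a high *Hells* CTRL strength, nothing is read from this count. In percentiles of their own lists, the members moved from a median of 96.0 in *Hells* CTRL to 22.5 in *Hells* cKO, and 319 of the 613 partners (52.0%) were in the weakest 25% of the *Hells* cKO list. The members held 26.6% of the summed strength of the *Hells* CTRL list, and their partners 2.48% of that of *Hells* cKO. For the 602 members at least 4-fold stronger in *Hells* CTRL, these shares were 25.55% and 1.425%.

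The strongest member outside the repeats described below, in an intron of *Ankfn1*, had strengths of 2360 (*Hells* CTRL) and 80 (*Hells* cKO). It was followed by the *Erbb4* hotspot, with 2280 and 77, the *Dennd1a* hotspot, with 2189 and 91, and the *Hdac9* hotspot, with 2132 and 61. Intergenic hotspots on chromosomes 10 and 2 had 2076 and 97, and 2048 and 84. The *Braf* hotspot had 1973 and 53, and the hotspot in an intron of *Gabrb1*, a subunit of the GABA-A receptor, had 1962 and 76. The ratios of these 8 lay between 21.4 and 37.2. Of these, the chromosome 10 and *Gabrb1* hotspots had no motif match. At the limit, the weakest members in *Hells* CTRL, in introns of *Ccdc187* and *Acat1* and between genes on chromosome 5, had partners of 10, 13 and 16. Just under the limit, the strongest peaks with a partner, in an intron of *Kmt2c* and between genes on chromosomes 18 and 11, had *Hells* CTRL strengths of 338, 332 and 330 and partners of 22, 12 and 14.

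**Figure D1:**
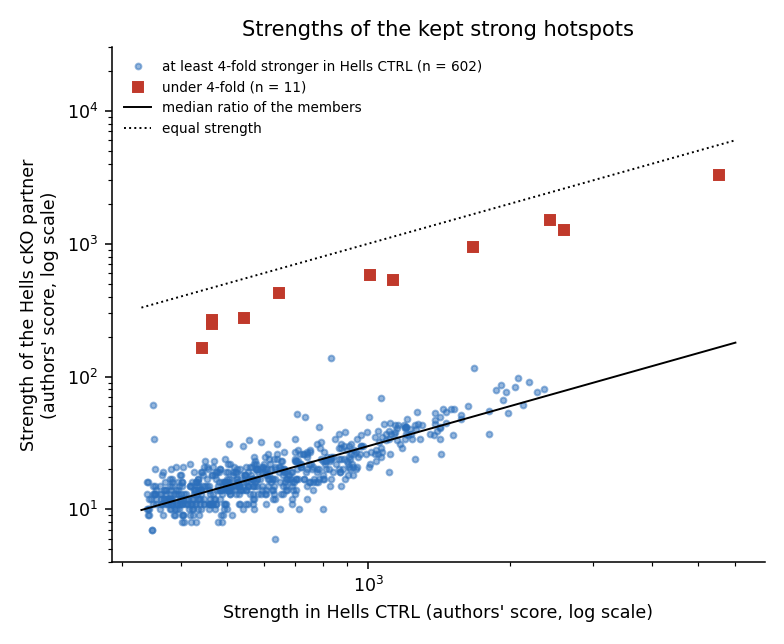
Strength of each of the 613 kept strong hotspots in *Hells* CTRL (x axis, authors' score, log scale) against that of its *Hells* cKO partner (y axis, same unit, log scale). The 602 circles follow the solid line of the median ratio, 33.4, and the 11 squares, under 4-fold, lie near the dotted line of equal strength.

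The ratio changed little with the strength of the hotspot. It had a median of 31.6 in the 222 members with strengths below 500 (95% interval 30.7 to 33.3), 34.3 in the 213 from 500 to below 750 (33.4 to 36) and 33.5 in the 178 with 750 and above (32.2 to 35.3). The intervals of the first 2 classes did not overlap. A member had to be on the *Hells* cKO list, whose lowest strength was 5 and on which 4.01% of the peaks had a strength up to 10, so a lower partner could be seen only at the stronger members. In the 602 members that were at least 4-fold stronger in *Hells* CTRL, Spearman's correlation of both strengths was 0.762, and it was 0.789 in the 172 of these with 750 and above. The 602 were limited by the ratio of the same strengths, and over all 613 members the coefficient was 0.752. These coefficients are across hotspots of the same libraries and not across mice.

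Within these 602, which were already limited by their ratio, classes of sequence or position had overlapping intervals of the median ratio, whereas the 11 members left out, described below, differed from them in sequence. Among the 602, the ratio had a median of 34.0 with a motif match (95% interval 32.9 to 34.9, n = 421) and 33.0 without (31.1 to 34.4, n = 181). It was 34.1 with a start site within 1 kb (30.5 to 39.4, n = 40) and 33.6 without (32.7 to 34.3, n = 562). In gene bodies it was 33.6 (32.6 to 34.6, n = 375) and outside genes 33.8 (31.8 to 34.8, n = 227). With up to 2 CpG dinucleotides within 250 bp of the center it was 33.6 (31.8 to 34.8, n = 213), and with at least 6 it was 33.5 (31.9 to 35.5, n = 168). In the most distal 20% of the chromosome it was 34.3 (31.8 to 36.6, n = 92), against 33.3 elsewhere (32.6 to 34.2, n = 510). Over all 613 members, the medians of these classes lay between 31.4 (start site within 1 kb, 95% interval 28.4 to 36.6, n = 45) and 34.3, and were 34 with a motif match and 32.2 without (30.5 to 33.9, n = 192). The same splits of the 172 members with 750 and above gave medians between 32.8 and 36.3. Spearman's correlation of the log2 ratio with the motif score was 0.035, and with the number of CpG 0.026 (n = 602).

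**Figure D2:**
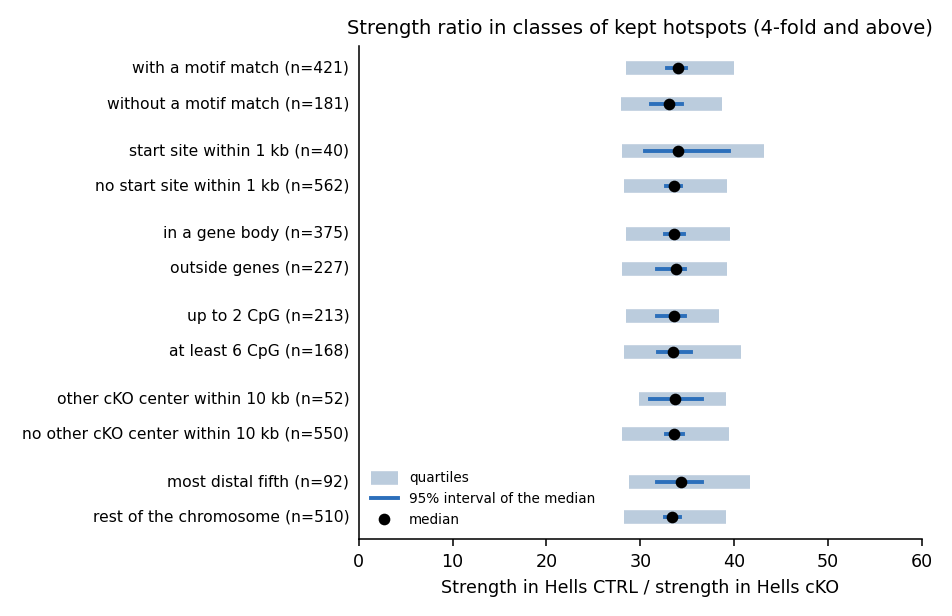
Ratio of the *Hells* CTRL strength to the *Hells* cKO strength (x axis) in pairs of classes of the 602 kept hotspots at least 4-fold stronger in *Hells* CTRL. Points are medians, dark lines their 95% intervals and pale bars the quartiles, and the medians sit between 33.0 and 34.3.

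At the upper end, the hotspot in an intron of Gm30676 on chromosome 10 had 633 against 6, a ratio of 105.5. The next were in an intron of *Celf4*, an RNA-binding protein of neurons (799 and 10, 79.9-fold), between genes on chromosome 10 (714 and 10, 71.4-fold), in an intron of the protease gene *Prss23* (650 and 10, 65.0-fold) and in an intron of *Lhfpl3* (688 and 11, 62.5-fold). In *Celf4* the other member had 1067 and 35, so that ratios of 30.5 and 79.9 were found in the same gene. The partners of these highest ratios, from 6 to 11, were near the lowest strength of the *Hells* cKO list, 5. They have no replicate error. Between 4-fold and 16-fold there were 7 members. The lowest were in a coding exon of *Pias3*, a SUMO ligase (349 and 61, 5.72-fold), in a coding exon of *Steap1* (834 and 138, 6.04-fold) and in an intron of *Tsc22d1* (351 and 34, 10.3-fold). These 3 were the richest in CpG of the 7, with 17, 19 and 19 CpG within 250 bp, and the *Pias3* and *Steap1* centers lay 743 and 221 bp from a start site of their gene. All 3 had a motif match. The other 4 were in introns of *Rnf17*, a germ cell tudor protein, *Nrg1*, a ligand of the ErbB receptors, and *Trip12*, a ubiquitin ligase, and between genes on chromosome 16, with ratios of 13.6, 14.4, 15.4 and 14.6 and 1 to 5 CpG.

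A separate set of 11 members was under 4-fold, with ratios between 1.53 and 2.71 (median 1.76), and no member fell between 2.71 and 5.72. This limit was set after the values had been seen. The hotspots of Gm10800, Gm21738 and Gm10801 were the 3 strongest members in *Hells* CTRL, and with that of Gm26870 the 4 strongest in *Hells* cKO. They lay in a coding exon of Gm10800 (chr2:98665602-98668147, 5547 and 3299 in the order *Hells* CTRL, *Hells* cKO), in an intron of Gm10801 (chr2:98661696-98663659, 2430 and 1507), in an intron of Gm21738 (chr14:19415840-19420225, 2604 and 1275) and in an intron of Gm26870 (chr9:2999409-3002176, 1664 and 945). The other members of the set lay in introns of *Plekha5* (1129 and 537), Gm33838 (1006 and 583), *Chl1*, a neural cell adhesion molecule (647 and 423), and Gm20388 (444 and 164), in coding exons annotated to Gm17535 (545 and 276) and Gm10717 (465 and 249), and between genes on chromosome 12 (466 and 266). Their partners were at percentiles 94.7 to 100 of the *Hells* cKO list.

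No member of this set had a motif match (0 of 11, 95% interval 0 to 28.5%), while 421 of the other 602 had 1 (69.9%, 66.1 to 73.6%). A tandem repeat, which required an identity of 0.7 or more between bases a fixed lag apart, was found at 5 of the 11, and at 6 of the 602 (0.997%, 0.367 to 2.16%). Tandem repeats were at 1.79% of all members, 0.312% of missing strong hotspots, 0.771% of weaker peaks and 0.622% of *Hells* cKO peaks with no partner. The median GC content within 250 bp was 35.6% in the 11 (95% interval 34.0 to 48.0) and 41.4% in the 602 (40.4 to 42.2), whereas the median number of CpG was 11 (6 to 14) and 3 (3 to 4). Bases that the reference marks as repeats by lower case made up a median of 83.6% of the 500 bases around the 11 centers (30.6 to 97.4), and of 16.2% around the 602 (14.6 to 17.6). The intervals for the 11 count them as separate sites, although most share words of the repeat described below, so they are too narrow. Both *Chl1* and *Plekha5* held no tandem repeat and no words of 14 bases of the chromosome 9 repeat.

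At 7 members, the repeat under the Gm26870 hotspot also held at least 20% of the 14-base words in the 1000 bases around the center, and this was so at none of the 321 missing strong hotspots. The words were taken from the Gm26870 hotspot, which is counted among the 7, so its own share was fixed. The share over weaker peaks is not given, so the count is a description only. Shares were 100% at that hotspot itself, 75.2% at Gm10717, 54.3% at Gm17535, 37.5% at Gm21738, 33.2% at Gm10800, 22.6% at Gm10801 and 22.3% at the intergenic hotspot of chromosome 12, and 19.6% at Gm33838 was just below the limit. The unit is shown because it links members on 4 chromosomes. It is 234 bp long, the unit length of the mouse major satellite of pericentromeric heterochromatin, and starts at the *Hells* CTRL center (chr9:3000793-3001026, + strand).
Unit of the chromosome 9 repeat: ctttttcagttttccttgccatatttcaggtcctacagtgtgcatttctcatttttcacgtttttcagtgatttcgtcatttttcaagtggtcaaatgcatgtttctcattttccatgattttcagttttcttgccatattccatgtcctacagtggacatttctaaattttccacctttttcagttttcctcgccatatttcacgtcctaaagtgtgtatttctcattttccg

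Uniquely mapped reads at such repeats depend on how many copies the assembly holds, and the part of this in the strengths of the 11 members was not tested. Leaving out the 11 members left the median ratio at 33.6 and the other main medians and shares within their intervals. The partners' share of the summed *Hells* cKO strength, which has no interval, was 1.425% without them and 2.483% with them.

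The share of *Hells* CTRL peaks that were kept rose with their strength. A kept peak needs a partner on the *Hells* cKO list, whose lowest strength was 5, and weak peaks can fall below that floor. What part of the rise comes from this was not tested. Above 338 and below 400, 86 of 244 peaks were kept (35.2%, 95% interval 29.3 to 41.6%), from there to below 500, 136 of 245 (55.5%, 49.0 to 61.8%) and to below 600, 106 of 140 (75.7%, 67.8 to 82.6%). From 600 to below 750 it was 107 of 117 (91.5%), from there to below 1000, 86 of 91 (94.5%) and at 1000 and above 92 of 97 (94.8%, 88.4 to 98.3%). Just below the limit, between 200 and 338, 109 of 988 peaks were kept (11%), and under 200 it was 1.80 to 1.99%. Since the missing strong hotspots were thus weaker as a group, comparisons with them were also made within classes of strength.

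**Figure D3:**
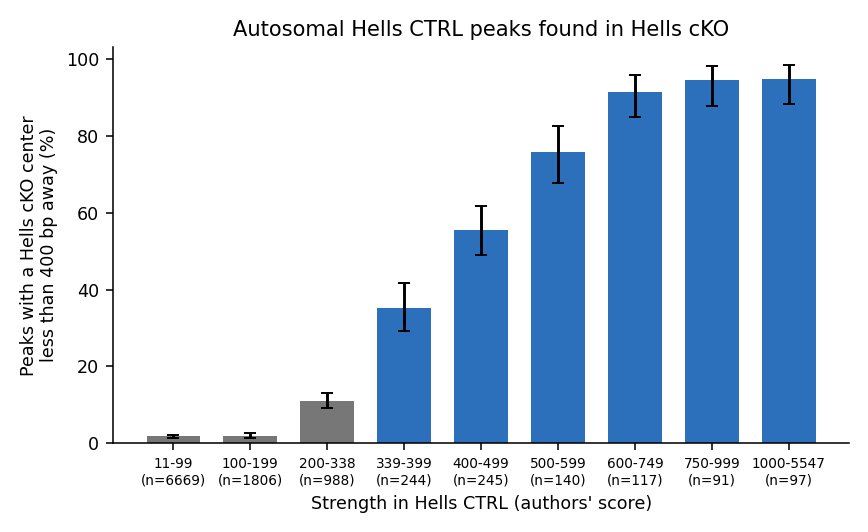
Share of autosomal *Hells* CTRL peaks with a *Hells* cKO center less than 400 bp away (y axis, %) in classes of *Hells* CTRL strength (x axis, authors' score, number of peaks in brackets). Bars to the right of the first 3 are the strong hotspots, error bars are exact 95% intervals, and the share rises from 1.80% in the weakest class to 94.8% in the strongest.

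In sequence, the members were closer to the other *Hells* CTRL hotspots than to the peaks found only in *Hells* cKO. A motif match within 100 bp of the center was present in 421 of 613 members (68.7%, 95% interval 64.8 to 72.3%), in 220 of 321 missing strong hotspots (68.5%), in 61.6% of the weaker *Hells* CTRL peaks and in 15.1% of the 15443 autosomal *Hells* cKO peaks with no *Hells* CTRL partner. Over all autosomal peaks, 62.2% of *Hells* CTRL and 16.6% of *Hells* cKO peaks matched. The limit was set so that 10% of windows 1000 bp away reached it, and 61.9% of the weaker peaks held back from learning passed it. The difference between members and weaker peaks was 7.06 percentage points (95% interval of the difference 3.16 to 10.7), and with a stricter limit 11.2 points (7.16 to 15.2), at 58.7% and 47.5%. Between members and missing strong hotspots the interval of the difference held 0 overall and in the classes below 750. At 750 and above, 71.9% of the 178 members and 4 of the 10 missing hotspots had a match, a difference of 31.9 points (2.33 to 55.9). With the next missing hotspot, at *Crygs*, the difference was 26.8 points and its interval held 0 (-0.665 to 51.7), so this difference depends on that 1 hotspot. Matches lay on the strand of the reference in 219 members and on the opposite strand in 202. Among members, strength in *Hells* CTRL had a Spearman's correlation of 0.102 with the motif score (n = 602).

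CpG content was as low in the members as in other *Hells* CTRL peaks. The median was 4 CpG within 250 bp of the center (95% interval 3 to 4) in the members, 4 in missing and in weaker peaks, and 26 (26 to 27) in *Hells* cKO peaks with no partner. At least 10 CpG were found in 7.18% of the members (5.26 to 9.52%) and in 92.9% of the latter. The median GC content was 41.2% (40.4 to 42.2) in the members, 41.6% (40.8 to 42.4) in missing strong hotspots, 43.2% (43.2 to 43.4) in weaker peaks and 58.2% (57.8 to 58.4) in *Hells* cKO peaks with no partner. The interval of the members thus did not reach that of the weaker peaks.

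**Figure D4:**
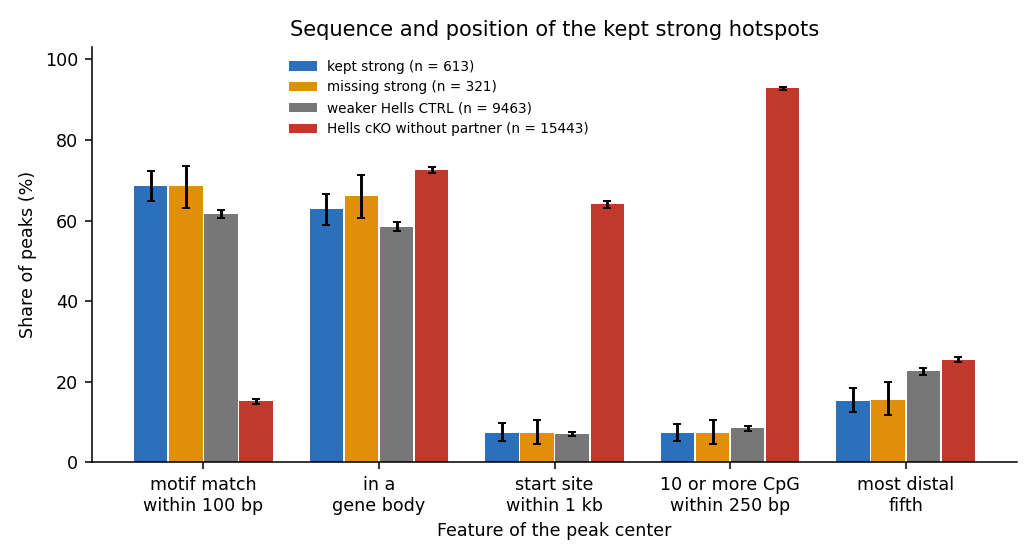
Share of peaks (y axis, %) with each of 5 features of the center (x axis) in the kept strong hotspots, the missing strong hotspots, the weaker *Hells* CTRL peaks and the *Hells* cKO peaks with no *Hells* CTRL partner, all on autosomes. Error bars are exact 95% intervals, and the first 2 groups differ by less than these in every feature. The motif match, start sites and CpG set the last group apart.

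Most members were in genes, mainly in introns. By the GENCODE M21 annotation, 328 centers were in an intron, 228 between genes, 25 in a coding exon, 20 in a noncoding exon and 12 in a UTR. Gene bodies held 385 of the 613 (62.8%, 95% interval 58.8 to 66.6%), against 66% of missing strong hotspots, 58.5% of weaker peaks and 72.6% of *Hells* cKO peaks with no partner. The difference from weaker peaks was 4.27 points (0.254 to 8.14), but with protein-coding genes only it was 3.43 points with an interval that held 0 (-0.651 to 7.45). Coding exons held 4.08% of the members, 4.05% of missing strong hotspots and 2.08% of the weaker peaks. The difference from weaker peaks was 2.00 points (0.660 to 3.89). From missing strong hotspots it was 0.028 points, with an interval that held 0 (-3.02 to 2.54), so this share was not particular to the members. The 329 protein-coding genes with a member had a median length of 118 kb, and those with a missing strong hotspot, with a weaker peak and all on the autosomes had 97.7, 85.0 and 17.6 kb. Longer genes offer more room for a center, which these values do not correct for.

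The strongest members in coding exons, besides Gm10800, were in *Atad2b* (1799 against 55), in *Notch2*, a receptor of cell contact signaling (1119 against 37), in *Tanc2* (1064 and 25) and in *Trrap*, a subunit of histone acetyltransferase complexes (1051 and 32). They were followed by *Sppl2a*, an intramembrane protease (964 and 30), *Rab3gap2* (942 and 20), *Snrnp200*, a helicase of the spliceosome (932 and 26), *Steap1* (834 and 138) and *Sirt1*, a deacetylase (790 and 29). A motif match was present at these 9. Apart from *Steap1*, their ratios lay between 27.2 and 47.1.

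Start sites were rare. A start site lay within 1 kb of 45 members (7.34%, 95% interval 5.41 to 9.70%), against 7.17% of missing strong hotspots, 7.10% of weaker peaks and 64.0% of *Hells* cKO peaks with no partner (63.3 to 64.8%). Apart from the repeats, the strongest was centered in a noncoding exon of *Clk1*, a kinase of splicing factors, 96 bp from its start site (chr1:58419274-58421329, 1800 against 37), with a ratio of 48.6, 10 CpG and a motif match. A second *Hells* cKO peak was centered 3221 bp from it.

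Of the genes with a member, 16 held 2 and 2 held 3. *Hdac9* held 3 over its 870 kb, with *Hells* CTRL strengths of 418, 2132 and 612 and partners of 22, 61 and 17. The strongest in one list was the strongest in the other, while the order of the weaker members was reversed. In Gm26870, the 3 members were those of the chromosome 9 repeat. *Rims2*, a presynaptic scaffold, held hotspots of 826 and 873, with partners of 20 and 29. *Gabrb1* held hotspots of 753 and 1962, with 27 and 76, at 18998 bp from each other, and *Herc2*, a ubiquitin ligase, held 504 and 672, with 14 and 14, at 17186 bp. *Nrg1* held hotspots of 607 and 1671, with 13 and 116, at ratios of 46.7 and 14.4. The potassium channel gene *Kcnq5* held 840 and 554, with 25 and 19.

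In the same order, *Fat4*, an atypical cadherin, held hotspots of 1204 and 926 with partners of 42 and 18, and *Chd9*, a chromatin remodeler, 687 and 508 with partners of 12 and 16. *Cdkal1* held 515 and 494 with partners of 19 and 11, *Ola1* 403 and 661 with 11 and 20, and *Ncoa7* 780 and 394 with 16 and 13. *Ccdc171* held 800 and 548 with partners of 17 and 17, and *Faf1* 1030 and 342 with 35 and 9. *Lhfpl3* held 688 and 381 with partners of 11 and 11, *Myom2* 809 and 701 with 23 and 23, and the noncoding gene 4930467D21Rik 485 and 741 with 12 and 26. Among the genes with 2 members, the member stronger in *Hells* CTRL was thus also the stronger or equal in *Hells* cKO in each except *Chd9*. The partners were equal in *Herc2*, *Ccdc171*, *Lhfpl3* and *Myom2*.

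Of 47 listed genes of meiotic recombination, 43 were found on the autosomes of the annotation, and a member lay in 1 of them, *Cdyl*. Over all 20807 autosomal protein-coding genes, 1.58% held a member, so the count is near this background. A missing strong hotspot lay in *Atm*, the kinase that limits DSB numbers. Weaker *Hells* CTRL peaks lay in 6 of the 43 and *Hells* cKO peaks with no partner in 32, while 16.4% and 41.9% of all autosomal protein-coding genes held such peaks.

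Members were found on every autosome, from 13 on chromosome 19 to 49 on chromosome 2, at a mean of 25.5 per 100 Mb of assembled sequence. Density was lowest on chromosome 7, at 19 per 100 Mb, and highest on chromosome 18, at 34.2. The kept share of the strong hotspots lay between 54.2% on chromosome 19 (13 of 24, 95% interval 32.8 to 74.4%) and 74.4% on chromosome 12 (29 of 39, 57.9 to 87.0%), and the median ratio of a chromosome between 30.4 and 37.1. The most distal 20% of the chromosomes held 94 members (15.3%, 12.6 to 18.4%) and 15.6% of missing strong hotspots, but 22.6% of weaker peaks (21.7 to 23.4%) and 25.5% of *Hells* cKO peaks with no partner. The difference from weaker peaks was -7.23 points (95% interval -9.998 to -4.05). The most proximal 20% held 20.6% of the members and 20.7% of the weaker peaks.

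The median gap between neighbouring members was 2.65 Mb, and 1 of 594 neighbouring pairs was within 10 kb and 25 within 100 kb. The closest were Gm10801 and Gm10800, 4197 bp from each other, then Gm10717 and Gm17535 at 10297 bp, both pairs in the repeats described above. They were followed by the pairs in *Herc2*, between *Clk1* and *Ppil3* (18113 bp) and in *Gabrb1*. The nearest other *Hells* CTRL peak of any strength lay at a median of 76580 bp, against 72151 bp for missing strong hotspots and 74583 bp for weaker peaks.

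Missing strong hotspots had another *Hells* cKO peak nearby more often than the members did. Both the choice of members and this distance come from the *Hells* cKO list, so the values are a description. Apart from the partner, a *Hells* cKO center lay within 10 kb of 57 of 613 members (9.30%, 95% interval 7.12 to 11.9%) and of 80 of 321 missing strong hotspots (24.9%, 20.3 to 30.0%), with 13.6% of weaker peaks. On the *Hells* cKO list, centers were never closer than 1011 bp to each other, which limits what can lie beside a partner. Between 3 and 10 kb, the shares were 8.81% (54 members, 6.69 to 11.3%) and 17.4% (56 missing, 13.5 to 22.0%). In the class below 500, the share within 10 kb was 8.11% of members and 20.2% of missing hotspots, from 500 to below 750 it was 10.8% and 38.6%, and at 750 and above 8.99% (16 of 178) and 90% (9 of 10). The neighbours had a median strength of 50 in *Hells* cKO beside members (37 to 75) and 51.5 beside missing hotspots (37 to 60), and 63.2% and 70.0% of them had a start site within 1 kb.

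The 10 missing hotspots with a strength of at least 750 show this at single loci. The strongest, in an intron of Gm43191 on chromosome 3, had 1398, and the nearest *Hells* cKO peak, with 189, was centered 4484 bp away. An intergenic hotspot on chromosome 12 had 1362 and a *Hells* cKO peak of 134 at 3073 bp, and the hotspot in an intron of *Arih1*, a ubiquitin ligase, had 1017 and a *Hells* cKO peak of 76 at 1365 bp. In *Pex19*, a factor of peroxisome assembly, a hotspot of 866 had a *Hells* cKO peak of 80 at 1736 bp. At *Hcfc2* (913), a *Hells* cKO peak of 20 was centered 550 bp away, close to the limit. The exception was an intergenic hotspot on chromosome 1 (852), whose nearest *Hells* cKO peak was 183231 bp away. Intervals of 5 of the 10 overlapped a *Hells* cKO interval, as did 17 of all 321 missing strong hotspots.

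The centers of members and their partners lay a median of 74 bp from each other (95% interval 67 to 79 bp), and 383 of 613 were within 100 bp. The partner was shifted to higher coordinates at 301 members and to lower at 310. Just inside the limit were the hotspots in introns of *Dusp26* and *Npas3* and in a noncoding exon of 4932438A13Rik, at 380, 351 and 360 bp. Just outside it were strong hotspots on chromosome 3 between genes, in a coding exon of *Crygs* and in an intron of *Nln*, at 442, 455 and 457 bp. The middle of the motif match was closer to the *Hells* CTRL center, at a median of 38 bp (33 to 43 bp), than to the *Hells* cKO center, at 85 bp (76 to 95 bp, n = 421), and it was closer to the *Hells* CTRL center in 326 of the 421 members with a match (77.4%, 73.1 to 81.3%). Matches were searched only within 100 bp of the *Hells* CTRL center, which favors that center.

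Partners were narrower than the *Hells* CTRL peaks of the same members. The median width was 1968 bp in *Hells* CTRL (95% interval 1948 to 1992 bp) and 1606 bp in *Hells* cKO (1582 to 1636 bp), 551 of 613 partners were narrower and 442 lay wholly inside the *Hells* CTRL interval. Width went with strength in both lists, with Spearman's correlations of 0.494 (*Hells* CTRL) and 0.404 (*Hells* cKO, n = 602), so the partners were set beside peaks of like strength in their own list. At strengths of 13 to 24 in *Hells* cKO, the partners had a median width of 1620 bp (1586 to 1648 bp, n = 337) and *Hells* cKO peaks with no partner 1796 bp (1784 to 1808 bp, n = 4625). Within *Hells* CTRL, members and missing strong hotspots had like widths in the same class of strength, with 1872 and 1884 bp below 500 and 1940 and 1959 bp from there to below 750.

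**Figure D5:**
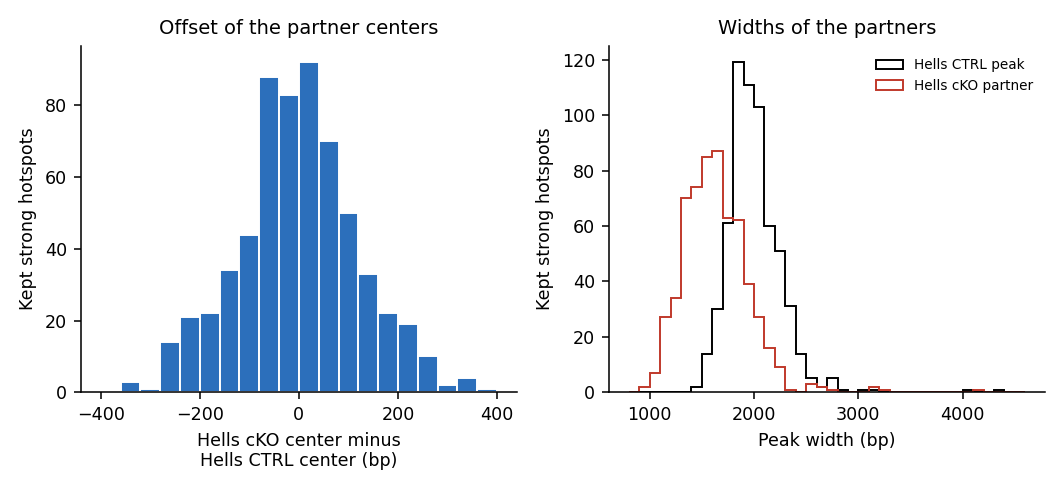
Left, distance from the *Hells* CTRL center to the *Hells* cKO center of each kept strong hotspot (x axis, bp) and number of hotspots (y axis). Right, width of the *Hells* CTRL peaks and of their *Hells* cKO partners (x axis, bp, number of hotspots on the y axis), with medians of 1968 and 1606 bp.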

How the data were processed

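DMC1 ChIP-SSDS was performed on whole testes of both genotypes, and the 5hMeDIP libraries were not used here. The authors trimmed and filtered the reads, mapped them to GRCm38/mm10, kept non-duplicated uniquely mapped reads, called peaks with MACS, took the top peaks of the merged replicates by the Irreproducible Discovery Rate and deposited a score for each peak, its strength. The methods name a correction for local background and library size, and the deposited scores are whole numbers. Uniquely mapped reads leave repeats poorly measured, and the depth behind the scores is unknown.

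Centers were midpoints of intervals, and members had a strength of at least 339 and a *Hells* cKO center within 399 bp. Sequence came from GRCm38.p6 and genes from GENCODE M21. The motif was learned on alternate weaker *Hells* CTRL peaks with no partner (4588) from the word of 8 bases most frequent at centers against windows 1000 bp away, refined over 15 rounds, and checked on the other 4610. Tandem repeats were called from an identity of at least 0.7 over 500 bp, for lags between 10 and 400 bp. Shares have exact (Clopper-Pearson) 95% intervals, medians the interval of their order statistics and differences of shares Newcombe's interval, for counting error only. With 1 list per genotype there was no test across mice. Hotspots named were the strongest, those of highest and lowest ratio, in coding exons, near start sites, in genes with several, in the closest pairs and beside the limits. The strength classes, missing hotspots of at least 750 and members at 2.71 to 16-fold were named after their values were seen. The members and lists were chosen with earlier results of these data known. Alternatives tried were another distance, or an overlap, for a kept peak, the strength limit, tandem repeats left out, and other windows, gene sets and scales. The code was tested on simulated data. Python 3.11.15, numpy 2.4.6, scipy 1.17.1, pysam 0.24.0 and matplotlib 3.10.9 were used.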

Additional observations from a re-analysis of the deposited data

How the results depend on the processing

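Over 85 alternatives to the 12 main values, 69 left the value within its 95% interval and 16 moved it. For the number of members, the limit was 1.5 times instead of an interval. The median log2 ratio kept its sign in each, but the choice of members by a high *Hells* CTRL strength favors that sign, so nothing is read from it. The number of members, 613, was 383 with centers within 100 bp and 391 with strengths of at least 500. The share in gene bodies was 55.5% with protein-coding genes only, and the share with a start site 4.89% within 500 bp and 12.4% within 2 kb. The median number of CpG, 4, was 2.5 when counted within 100 bp and scaled to the same length. The share with a motif match was 40.3% within 50 bp, 86.1% within 250 bp, with limits set in flanks of the same length, and 58.7% with the stricter limit. The median width was 2036 bp at strengths of at least 500. The median distance to another *Hells* CTRL center was 211204 bp among peaks of strength 100 and above. The median log2 ratio was 5.01 at strengths of at least 250, 4.23 with each strength as a share of its list's sum and 4.04 relative to its list's median, so the size of the ratio depends on the scale while differences between members do not. The median distance between partners was 44 bp when limited to 100 bp, and tandem repeats were at 0% when left out, both by construction. Leaving out the members under 4-fold, an alternative chosen after seeing the data, moved no value beyond its interval. No paired analysis was possible because the authors merged the replicates into 1 list per genotype, and for the same reason no replicate could be left out. Reads per peak are unknown, the strengths have no replicate error, and age differed with genotype.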
